A study of Mus musculus with 14 samples.

Results

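GABA is the main transmitter of the suprachiasmatic nucleus (SCN), the paired hypothalamic nucleus that holds the mammalian circadian clock, and 27 genes of its synthesis, transport, breakdown and reception were followed there. They were chosen by function, by matching gene symbols to a list, and make up 27 of the 55401 genes in the deposited table. Each of the 27 was found once, and 27 of 27 passed the filter on low values, a normalized read count of at least 10 in at least 3 libraries, which left 18175 genes for testing. By role they are 2 synthesis enzymes, 3 transporters, 2 breakdown enzymes, 11 subunits of the A receptor, 3 genes of the B receptor, 4 scaffold and trafficking genes and 2 chloride transporters. Of the 27, only Gabra3 and Gabrq passed the limma test between Vipr2-/- and wild-type mice, both higher in Vipr2-/- mice. They are neighbours on the X chromosome and encode the α3 and θ subunits of the A receptor. Both passed only with genotype averaged over exercise conditions, where 1.18% of all genes tested were called and 0.363% called higher. Under 27 alternative ways of processing, the Gabra3 call held in 23 and the Gabrq call in 12. None of the 27 genes passed for exercise, where limma called 1.28% of all genes in wild-type and 0.116% in Vipr2-/- mice.

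Bulk total RNA of the SCN was sequenced in 14 libraries, in 4 groups of genotype by exercise. Wild-type mice were C57BL/6, and Vipr2-/- mice, on a C57BL/6 background, carried no functional gene for VPAC2, the receptor of the SCN peptide VIP. Most mice were adult males older than 8 weeks. Mice of every group spent 14 days in a cycle of 12 h light and 12 h dark and were then kept in constant darkness. Those labelled nSVE ran free until they were culled at circadian time 14 (4 wild-type and 3 Vipr2-/- libraries). Those labelled SVE, for scheduled voluntary exercise, ran free for 14 days and then had a running wheel for only 6 h in every 24 h. They were culled, once entrained, 2 h after the wheel opened (4 wild-type and 3 Vipr2-/- libraries). Vipr2-/- mice entrained within 6 to 9 days and wild-type mice within 35 to 40 days. Time on the exercise schedule, time in darkness and age at culling may therefore have differed between the genotypes under SVE. These cannot be told apart from genotype under SVE or, in part, from the interaction and the averaged comparisons. Mice that did not entrain and Vipr2-/- nSVE mice without a rhythm were left out by the authors, so the groups hold selected animals. The labels' protocols place SVE mice of both genotypes at zeitgeber time 14. The series text equates this with circadian time 14 in Vipr2-/- but 24 in wild-type mice, and no other source here shows whether the 24 is meant. If it is, circadian time cannot be told apart from exercise in wild type, from genotype under SVE, or, in part, from the averaged comparisons and the interaction. The nucleus was cut by laser from 20 µm sections stained with cresyl violet. Whether each library is a separate animal is not stated in the labels. The p-values therefore describe only how far these libraries scatter, part of which may be technical.

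As background, glutamate decarboxylase makes GABA from glutamate, the vesicular transporter loads it into synaptic vesicles, and plasma membrane transporters of neurons and astrocytes remove it from the cleft. The A receptor is a chloride channel assembled from several families of subunits, and the B receptor is a dimer that acts through G proteins on channels and adenylyl cyclase. Nearly all SCN neurons use GABA. Whether the A receptor inhibits or excites a cell depends on its chloride level, which Slc12a2 (NKCC1, chloride import) and Slc12a5 (KCC2, chloride export) set against each other.

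The genes of the only called members lie side by side, and the windows around their starts are shown to let them be compared with that of Gabre, which encodes the ε subunit and is the third member of the cluster. In the GRCm38 build Gabre spans chrX:72255999-72274803 and Gabra3 chrX:72432681-72656848, both on the minus strand, while Gabrq spans chrX:72825178-72842602 on the plus strand. The gap between Gabre and Gabra3 is 157877 bases and that between Gabra3 and Gabrq 168329 bases. RefSeq windows (GRCm38.p6) run from 250 bases before to 50 bases after each start and were available for 24 of the 27 genes. Capitals mark matches, on either strand, to the GC box GGGCGG or to the TATA box TATAAA; no other motif searched was found in these 3 windows. The windows lie at chrX:72274672-72274971 (minus strand) for Gabre, chrX:72656758-72657057 (minus strand, one of 2 windows for this gene) for Gabra3 and chrX:72824928-72825227 (plus strand) for Gabrq.
Gabre: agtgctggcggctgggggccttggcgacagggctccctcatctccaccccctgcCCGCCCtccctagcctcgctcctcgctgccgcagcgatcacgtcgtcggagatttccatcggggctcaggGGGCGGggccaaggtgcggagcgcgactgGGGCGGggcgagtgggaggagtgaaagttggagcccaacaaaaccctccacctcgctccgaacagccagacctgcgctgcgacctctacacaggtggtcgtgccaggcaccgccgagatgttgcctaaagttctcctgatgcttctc
Gabra3: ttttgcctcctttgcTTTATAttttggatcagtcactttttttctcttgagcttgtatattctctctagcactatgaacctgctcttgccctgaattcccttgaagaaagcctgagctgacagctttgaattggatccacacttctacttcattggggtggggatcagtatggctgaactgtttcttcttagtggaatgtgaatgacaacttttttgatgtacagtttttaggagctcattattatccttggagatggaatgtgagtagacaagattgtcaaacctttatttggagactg
Gabrq: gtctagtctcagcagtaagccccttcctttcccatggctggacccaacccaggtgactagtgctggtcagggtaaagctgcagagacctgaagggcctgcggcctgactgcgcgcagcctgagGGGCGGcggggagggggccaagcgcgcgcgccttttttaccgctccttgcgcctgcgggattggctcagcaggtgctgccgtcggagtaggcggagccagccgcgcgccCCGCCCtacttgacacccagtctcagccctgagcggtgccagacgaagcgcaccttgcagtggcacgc
The Gabra3 window had 39.3% G and C and 0 CpG dinucleotides, against 66.7% and 24 CpG for Gabre and 67% and 23 CpG for Gabrq. Over 32851 windows of this length the median was 52.7% G and C and 7 CpG. A TATA box was present in 13.6% of all windows and in those of 3 members, Gabra3, Gabrb2 and Gad1. A GC box was present in 35.7% of all windows and in those of 16 of the 24 members. The E-box CACGTG (7.15% of all windows) matched 1 member, Slc12a5, and the cAMP element TGACGTCA (1.79%) and the D-box TTATGTAA (0.938%) matched 0. The shorter TGACG, which is contained in TGACGTCA, was found in 20.8% of all windows and in those of 5 members, Aldh5a1, Gabrb2, Gad2, Kctd12 and Nlgn2. Members were counted by gene, with a match in any of its windows, of which some genes had several. The shares over all windows are per window, so the 2 kinds of figure are not alike. A match is a description of the letters in the window and not a site.

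Depth was 17709080 to 48794679 reads per library. Vipr2 itself checked the genotype, at 6656 ± 341 (SD, n = 4) and 8192 ± 1483 (SD, n = 4) normalized read counts in wild-type nSVE and SVE and 178 ± 37.3 (SD, n = 3) and 176 ± 77.9 (SD, n = 3) in the Vipr2-/- groups. Of the genes tested, 4.56% to 8.23% were at 0 in wild-type nSVE, 1.22% to 4.65% in wild-type SVE and 11.2% to 20.7% in Vipr2-/- nSVE libraries. Among Vipr2-/- SVE libraries, library 2 had 3.99% of genes at 0 and the other two 10.5% and 16.3%. Libraries also differed in base composition. The log2 deviation of GC-rich genes (upper quartile, at least 54.8% G and C) minus that of GC-poor genes (lower quartile, at most 45.8%) was -0.21 to -0.03 in wild-type nSVE and 0.15 to 0.44 in wild-type SVE. It was -0.13, -0.28 and 0.42 in Vipr2-/- nSVE libraries 1 to 3, and -0.36, 0.14 and -0.56 in Vipr2-/- SVE libraries 1 to 3, so Vipr2-/- nSVE library 3 and Vipr2-/- SVE library 2 stood apart from their groups. SCN neuron markers (8 of 8 detected, among them Avp, Vip and Six6) summed to 38846 to 43847 normalized read counts in wild-type nSVE, 49432 to 59351 in wild-type SVE, 29855 to 33339 in Vipr2-/- nSVE and 30240 to 35444 in Vipr2-/- SVE libraries. Of the 8, Avp (3203 to 15712 over the libraries) and Rgs16 (3585 to 22013) had the highest means, so the sums follow these 2 genes in part. Six6 lay at 1569 to 3548 and Lhx1 at 2086 to 4290. In these bulk samples fewer cells of a type and less RNA per cell cannot be told apart. Markers of astrocytes (8 genes, 69324 to 88102 over the libraries) and oligodendrocytes (9 genes, 52713 to 104791) were also present, while 5 glutamatergic markers summed to 147 to 759, with Neurod6 at 0 throughout. Markers of neighbouring neuroendocrine neurons (5 genes, among them Oxt at a mean of 5199 and Trh at 1608) summed to 4606 to 10733. Of these, Crh was at 0 in 13 libraries. Those of meninges (6 genes) summed to 2588 to 16172 and those of ependyma (4 genes) to 678 to 2310. The part of such cells in the levels of the GABA genes was not tested.

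Per kilobase of exonic length, members spanned a wide range of levels. Exonic length here is that of all annotated exons of a gene merged, not that of the transcripts present, so the order of genes depends on it in part. Slc6a11, the GABA transporter GAT3, stood highest in 10 of 14 libraries with a mean of 9858 normalized read counts per kb, and Gabarapl1 in the other 4, with a mean of 8731. Slc32a1 followed at 5996 per kb, then Gabarap at 4695, Gabbr1 at 3370.1 and Abat at 3029. The decarboxylases Gad2 and Gad1 lay at 2647 and 2402 per kb, next to Nlgn2 at 2384 and Slc12a5 at 1909. Receptor A subunits were lower. Among the 11 subunits Gabre was highest per kb in 11 of 14 libraries and Gabra3 in 3, with means of 821 and 613 that overlap in range. Gabra3 stood above the other α subunits measured here (Gabra2, Gabra5 and Gabra4) in 14 of 14 libraries, Gabrb1 above Gabrb2 in 14 of 14, Gabrg3 above Gabrg1 in 14 of 14 and Gabbr1 above Gabbr2 in 14 of 14. Slc6a13 (16.3 per kb) and Gabrd (7.23 per kb) were near the limit of detection and were at 0 in 5 and 6 libraries.

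**Figure D1:**
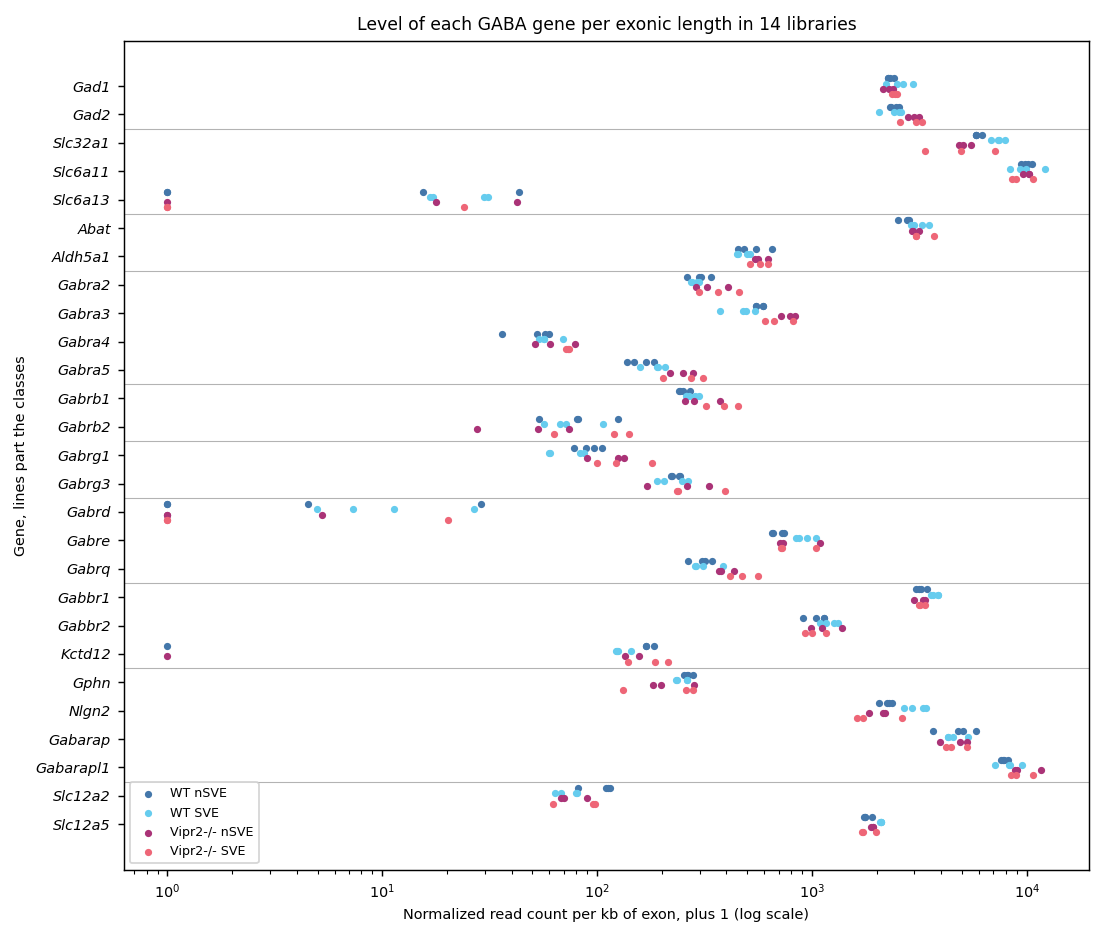
Normalized read counts per kb of exonic length plus 1 (log scale) for the 27 GABA genes, by role. Each point is 1 library and colours mark the 4 groups. Levels run from a mean of 9858 per kb for Slc6a11 to 7.23 per kb for Gabrd, and points at 1 are libraries with a value of 0.

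Averaged over the exercise conditions, 2 of 27 members were called between genotypes at a Benjamini-Hochberg adjusted p under 0.05 in limma, both higher in Vipr2-/- mice, where 1.18% of all genes tested were called and 0.363% called higher. By edgeR 2 were called, where edgeR called 0.721% of all genes, and by DESeq2 8, where DESeq2 called 4.54%. Gabra3 and Gabrq rose, and 10 members had an unadjusted p under 0.05, a share to be read against 17.8% of all genes. Of the 27, 13 had a fold change above 0, with a median log2 fold change of -0.01 against -0.12 over all genes. Over the 24 members with no library at 0 the median was 0.07, with 13 above 0. The median over all genes was not limited in this way. Without SVE, 0 members passed in limma and 6 had an unadjusted p under 0.05 (14.3% of all genes). There edgeR and DESeq2 also called 0, and 0.611% of all genes were called by limma. In this and the next paragraph, shares of all genes are not given for edgeR or DESeq2 where they called 0 members. Such a 0 cannot be read against what the tool called among all genes. Under SVE, 0 members passed in limma and 11 had an unadjusted p under 0.05 (15% of all genes), with 0 called by edgeR and 8 by DESeq2. There limma called 0.176% and DESeq2 2.66% of all genes. The DESeq2 calls under SVE were Gabra3, Gabrq, Gabrb1 and Gabrg1, higher in Vipr2-/-, and Nlgn2, Slc32a1, Slc12a5 and Gabbr1, lower. Without Vipr2-/- SVE library 2 the averaged genotype comparison had 8 members called, where limma called 5.62% of all genes. Without that library limma itself called 7 members under SVE, where it called 6.12% of all genes: Gabrg1, Gad2, Gabrb1, Gabra3 and Gabrq higher, and Slc32a1 and Nlgn2 lower. The 4 comparisons between single groups share their groups pairwise, so their values are not independent.

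For exercise within wild type, 0 members passed in limma and 7 had an unadjusted p under 0.05 (12.5% of all genes), while 1.28% of all genes were called. The count was 0 with edgeR and 3 with DESeq2 (Slc12a5, Gabbr1 and Nlgn2, higher under SVE), which called 3.9% of all genes. Without Vipr2-/- SVE library 2 it was 1 in limma, Nlgn2, where 2.13% of all genes were called. Within Vipr2-/- mice, 0 members passed in limma, edgeR or DESeq2 and 2 had an unadjusted limma p under 0.05 (13.8% of all genes), with 0.116% of all genes called. For the interaction of genotype and exercise, 0 members passed in the 3 tools and 4 had an unadjusted limma p under 0.05 (10.3% of all genes), with 0.022% of all genes called. Averaged over genotypes, SVE against nSVE gave 0 calls among the members in the 3 tools and 3 unadjusted limma p under 0.05 (15% of all genes), with 1.45% of all genes called. The 3 smallest p there were those of Gabrb1 (log2 fold change 0.25, SE 0.0949, limma adjusted p = 0.221), Gabra3 (-0.23, SE 0.0964, adjusted p = 0.260) and Abat (0.16, SE 0.0721, adjusted p = 0.295).

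**Figure D2:**
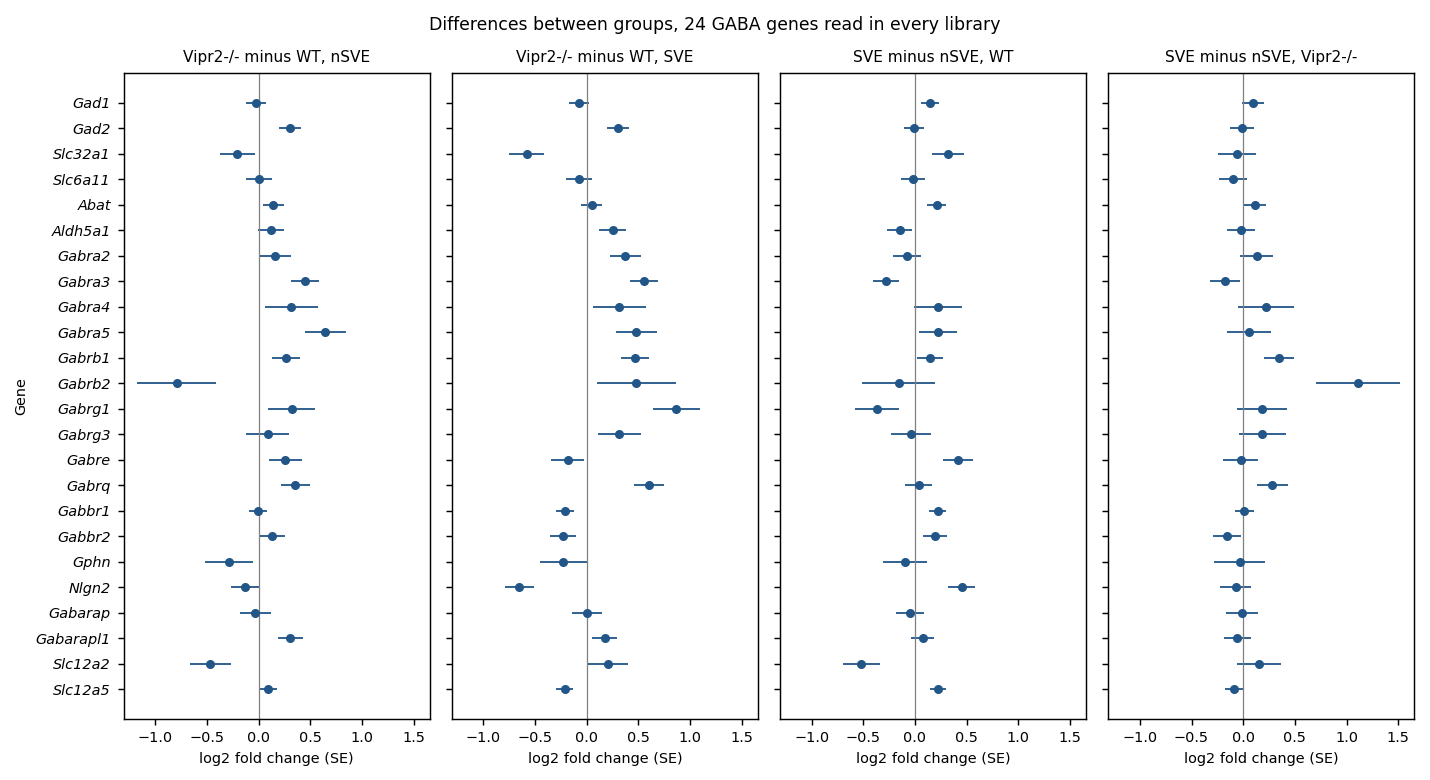
Log2 fold changes of the 24 GABA genes with no library at 0 (x axis) with their standard errors as bars, by gene, for the genotype comparison in each exercise condition and the exercise comparison in each genotype. Gabra3 and Gabrq lie right of 0 in both genotype panels, at 0.45 and 0.36 without SVE and at 0.55 and 0.60 under SVE.

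Counted without a test, the libraries of 7 members did not overlap between the genotypes without SVE, 6 higher in Vipr2-/- (Gad2, Abat, Gabra3, Gabra5, Gabrq and Gabarapl1) and Slc32a1 lower, where 11.2% of all genes did not overlap (4.91% higher and 6.25% lower). Under SVE 8 did not overlap, Gabra3, Gabra4, Gabrb1, Gabrg1 and Gabrq higher in Vipr2-/- and Gabbr1, Nlgn2 and Slc12a5 lower, where the share over all genes was 14.1% (5.96% higher and 8.18% lower). Over the 6 Vipr2-/- and 8 wild-type libraries together, Gabra3 alone of the 27 did not overlap, against 0.715% of all genes (0.314% higher and 0.402% lower). Between SVE and nSVE in wild type 8 did not overlap, against 14.7% of all genes (8.61% higher and 6.06% lower). Slc32a1, Abat, Gabre, Gabbr1, Nlgn2 and Slc12a5 were higher under SVE there and Gabra3 and Slc12a2 lower. In Vipr2-/- mice 0 of 27 separated SVE from nSVE, against 9.99% of all genes (5.28% higher and 4.7% lower).

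Neither synthesis enzyme passed the test, Gad2 (GAD65, the form held at nerve terminals) coming closer to the threshold than Gad1 (GAD67, the form found throughout the cell). Gad2 had normalized read counts of 13656, 14546, 13533 and 14903 in wild-type nSVE, 15238, 12046, 14119 and 15013 in wild-type SVE, 18540.5, 16374 and 17517 in Vipr2-/- nSVE and 18012, 15120.3 and 19097 in Vipr2-/- SVE libraries. Each Vipr2-/- nSVE library lay above the wild-type nSVE libraries, but Vipr2-/- SVE library 2 lay within the wild-type SVE range. Without SVE the log2 fold change of Gad2 was 0.30 (SE 0.107, limma adjusted p = 0.230) and averaged over conditions it was 0.30 (SE 0.0755, adjusted p = 0.0653), above the threshold. It passed with DESeq2 (adjusted p = 0.00257, 4.54% of all genes called) and without Vipr2-/- SVE library 2 (adjusted p = 0.0139, 5.62% called). With the correction of each library for GC content and length the value was 0.15 (adjusted p = 0.234). Gad1 had normalized read counts of 18426, 17334, 17329 and 17635 in wild-type nSVE, 20224, 16857, 22487 and 19025 in wild-type SVE, 16409, 17408 and 18233 in Vipr2-/- nSVE and 18932, 18029 and 18582 in Vipr2-/- SVE libraries. These groups overlap in both comparisons of genotype, with log2 fold changes of -0.03 without and -0.08 under SVE. Over 28 alternatives the Gad1 values ranged from -0.16 to 0.011 without and from -0.28 to -0.011 under SVE, and passed in 0. Within a library, the ratio of Gad1 to Gad2 normalized counts was 1.25 ± 0.0788 (SD, n = 4) in wild-type nSVE, 1.40 ± 0.141 (n = 4) in wild-type SVE, 0.996 ± 0.0971 (n = 3) in the nSVE and 1.07 ± 0.111 (n = 3) in the SVE libraries of Vipr2-/- mice. The highest Vipr2-/- ratio, 1.1924 in SVE library 2, lay below the lowest wild-type SVE ratio, 1.267. Across conditions it lay above the wild-type nSVE ratios of 1.1833 in library 4 and 1.1916 in library 2. The ratio was given no test. Per kb, Gad2 stood above Gad1 in 10 of 14 libraries, an order that depends on the merged exonic lengths used, 5876 bases for Gad2 and 7639 for Gad1.

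**Figure D3:**
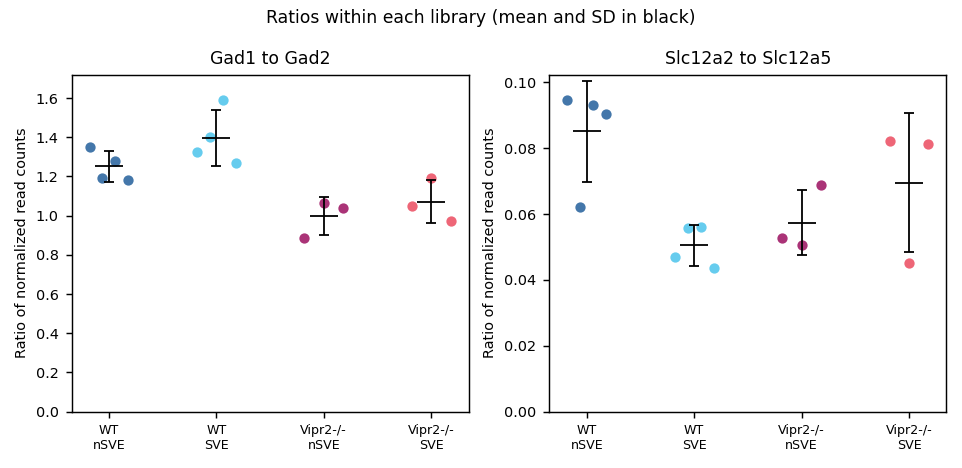
Ratios of normalized read counts within each library, Gad1 to Gad2 on the left and Slc12a2 to Slc12a5 on the right, on linear axes from 0. Points are libraries, and black bars are the mean and SD of each group. The Gad1 to Gad2 ratio averaged 1.25 and 1.40 in the wild-type groups and 0.996 and 1.07 in the Vipr2-/- groups, and the chloride transporter ratio was highest in wild-type nSVE at 0.0851.

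Of the transporters, Slc32a1 (VGAT, which loads GABA into vesicles) had normalized read counts of 16264, 17348, 16184 and 16279 in wild-type nSVE, 20457, 22265, 19006 and 20750.1 in wild-type SVE, 15319, 13539.5 and 14167 in Vipr2-/- nSVE and 13782, 20019.7 and 9404 in Vipr2-/- SVE libraries. Each wild-type SVE library lay above each wild-type nSVE library, and in the Vipr2-/- SVE group library 2 lay within the wild-type SVE range while the other two lay below it. Under SVE the log2 fold change of Slc32a1 between genotypes was -0.58 (SE 0.171, limma adjusted p = 0.167). Without Vipr2-/- SVE library 2, where limma called 6.12% of all genes, it was -0.85 (adjusted p = 0.00439), and with the GC and length correction -0.18 (adjusted p = 0.528). Exercise in wild type gave 0.32, which turned to -0.06 with that correction. Slc6a11, in brain a transporter of astrocytes, had normalized read counts of 53596, 51456, 47629 and 49336 in wild-type nSVE, 42083, 61778, 47070.2 and 50202 in wild-type SVE, 51651, 48463 and 51544 in Vipr2-/- nSVE and 43153, 53888 and 45107 in Vipr2-/- SVE libraries. Its groups overlapped in each comparison, and the log2 fold change farthest from 0 between single groups was -0.10, for exercise in Vipr2-/- mice. Astrocyte markers summed to 74209 to 85978 in wild-type nSVE, 69324 to 71905 in wild-type SVE, 79994 to 82364 in Vipr2-/- nSVE and 73762 to 88102 in Vipr2-/- SVE libraries. Slc6a13 (GAT2, in brain a transporter of the meninges) reached at most 122 normalized read counts and gives no usable fold change, being at 0 in 5 libraries.

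Neither breakdown enzyme passed the test in any of the 7 comparisons. Abat, the GABA transaminase, had normalized read counts of 21657, 21991, 19462 and 21522 in wild-type nSVE, 25270.5, 22506, 27171 and 23036 in wild-type SVE, 22569, 23014 and 24322 in Vipr2-/- nSVE and 23719, 23579 and 28777 in Vipr2-/- SVE libraries. Vipr2-/- nSVE and wild-type SVE libraries each lay above the wild-type nSVE ones, with log2 fold changes of 0.14 (SE 0.102, limma adjusted p = 0.547) and 0.21 (SE 0.0944, adjusted p = 0.373). The first was -0.0036 with the GC and length correction and -0.016 with each library's percentage of zeros as covariate. Aldh5a1, which oxidises the product of the transaminase, lay between 2526 and 3685 normalized read counts, with groups that overlap in each comparison.

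Subunits of the A receptor mostly had fold changes above 0 between genotypes in the values as deposited, but under SVE not after correction for base composition. Averaged over conditions, 9 of 11 had a fold change above 0, 2 were called higher and 0 lower, with a median log2 fold change of 0.32. Under SVE 9 of 11 were above 0 with a median of 0.47, and without SVE 9 of 11 with a median of 0.26, while the median over all genes was -0.10 in both. The median over all genes includes genes at 0 in some libraries, which were more frequent in most Vipr2-/- than in wild-type libraries. Among the subunits only Gabrd had libraries at 0, so the medians of subunits and of all genes are not fully alike. With the GC and length correction 5 of 11 were above 0 under SVE, with a median of -0.013, and 8 of 11 without SVE, with a median of 0.22. Averaged, 7 of 11 were then above 0, with a median of 0.046. Over the 16 other members the averaged median was -0.06, with 4 above 0. Subunits within a chromosomal cluster are separate genes but share a neighbourhood, and the 4 subunits on chromosome 5 (Gabrg1, Gabra2, Gabra4 and Gabrb1) were above 0 in each genotype comparison, though 1 of 4 was under SVE with the correction.

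Gabra3, which encodes the α3 subunit, had normalized read counts of 2142, 2329, 2148 and 2323 in wild-type nSVE, 1935, 1462, 1877 and 2138 in wild-type SVE, 2815, 3268 and 3093 in Vipr2-/- nSVE and 2598, 2367 and 3190.3 in Vipr2-/- SVE libraries. The lowest Vipr2-/- library, at 2367, lay above the highest wild-type library, at 2329. The averaged log2 fold change of Gabra3 was 0.50 (SE 0.0964, limma adjusted p = 0.0192), with 0.45 (SE 0.136, adjusted p = 0.164) without and 0.55 (SE 0.136, adjusted p = 0.130) under SVE. The averaged call held in 23 of 27 alternatives. It was lost without wild-type nSVE library 3 (adjusted p = 0.0506), without Vipr2-/- SVE library 3 (adjusted p = 0.0510), with array weights (adjusted p = 0.0581) and with each library's percentage of zeros as covariate (log2 fold change 0.31, adjusted p = 0.737). With the GC and length correction it was 0.45 (adjusted p = 0.0297). The percentage of zeros was 1.22% to 8.23% in wild-type libraries. It was 10.5% to 20.7% in Vipr2-/- libraries other than SVE library 2, at 3.99%. Fits with that covariate therefore cannot fully tell genotype apart from it. Wild-type SVE libraries of Gabra3 lay below the wild-type nSVE ones, at a log2 difference of -0.28 (SE 0.126, adjusted p = 0.363).

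Gabrq, for the θ subunit, had normalized read counts of 1693, 1831, 1649 and 1417 in wild-type nSVE, 1532, 1530.0, 1652 and 2066 in wild-type SVE, 1965, 2329 and 2023 in Vipr2-/- nSVE and 2519, 2219.8 and 2986 in Vipr2-/- SVE libraries. In each exercise condition the 3 Vipr2-/- libraries lay above the 4 wild-type ones, though across conditions Vipr2-/- nSVE library 1, at 1965, lay below wild-type SVE library 4, at 2066. The averaged log2 fold change of Gabrq was 0.48 (SE 0.101, limma adjusted p = 0.0333), with 0.36 (SE 0.143, adjusted p = 0.287) without and 0.60 (SE 0.143, adjusted p = 0.125) under SVE. This call held in 12 of 27 alternatives and in 5 of the 14 that leave out 1 library. The 9 omissions that ended it were wild-type nSVE libraries 1 (adjusted p = 0.0562), 3 (adjusted p = 0.0705) and 4 (adjusted p = 0.0613), wild-type SVE libraries 1 (adjusted p = 0.0737), 2 (adjusted p = 0.0746) and 3 (adjusted p = 0.0571), and Vipr2-/- nSVE library 2 (adjusted p = 0.0547), SVE library 1 (adjusted p = 0.0760) and SVE library 3 (adjusted p = 0.0818). With the GC and length correction Gabrq was at 0.36 (adjusted p = 0.0549). Exercise in Vipr2-/- mice gave 0.28 (SE 0.153, adjusted p = 0.409).

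Gabre, the ε subunit gene of the same cluster, had normalized read counts of 3519, 3109, 3073 and 3429 in wild-type nSVE, 4135, 4485, 3980.1 and 4971 in wild-type SVE, 3369.7, 3479 and 5142 in Vipr2-/- nSVE and 3431, 4933 and 3379 in Vipr2-/- SVE libraries. Wild-type SVE libraries lay above wild-type nSVE ones (log2 fold change 0.42, SE 0.147, limma adjusted p = 0.208), and Vipr2-/- libraries spread across both, with the highest value in nSVE library 3. This exercise value passed when only the wild-type groups were fitted (adjusted p = 0.0190) and with array weights (adjusted p = 0.0103). These were 2 of 28 alternatives, over which it ranged from 0.26 to 0.46. Both settings called a larger share of all genes for exercise in wild type than the main fit, which called 1.28%. Between genotypes the value of Gabre was 0.26 (SE 0.158) without SVE, and 0.064 without Vipr2-/- nSVE library 3. Under SVE it was -0.18 (SE 0.158), with -0.36 without Vipr2-/- SVE library 2, -0.10 without library 1 and -0.089 without library 3. Gabra5 (α5) had normalized read counts of 499, 547, 439 and 407 in wild-type nSVE, 466, 560.5, 567 and 610.0 in wild-type SVE, 644, 742 and 833 in Vipr2-/- nSVE and 919, 599 and 812 in Vipr2-/- SVE libraries. Its Vipr2-/- nSVE libraries lay above the wild-type ones (log2 fold change 0.64, SE 0.200, limma adjusted p = 0.174), while under SVE library 2 lay within the wild-type range. Averaged, it was 0.56 (SE 0.141, adjusted p = 0.0663), and with the GC and length correction 0.61 (adjusted p = 0.0451).

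On chromosome 5, Gabrb1 (β1) had normalized read counts of 3361, 3744, 3309 and 3456 in wild-type nSVE, 4092, 3587, 3713 and 3936 in wild-type SVE, 5182, 3898 and 3551 in Vipr2-/- nSVE and 5357, 4431 and 6230.4 in Vipr2-/- SVE libraries. Its Vipr2-/- SVE libraries lay above the wild-type SVE ones (log2 fold change 0.47, SE 0.134, limma adjusted p = 0.161), a value that was -0.10 (adjusted p = 0.797) with the GC and length correction. Exercise in Vipr2-/- mice gave 0.35 for Gabrb1 (SE 0.143, adjusted p = 0.315). Gabrg1 (γ1) had normalized read counts of 755, 608, 694 and 821 in wild-type nSVE, 464, 467, 678 and 646 in wild-type SVE, 1045, 973 and 699.7 in Vipr2-/- nSVE and 951, 777 and 1409 in Vipr2-/- SVE libraries. Under SVE its log2 fold change of 0.87 (SE 0.229, adjusted p = 0.138) was the highest among members with no library at 0, and it was 0.18 (adjusted p = 0.755) with the correction. Gabrb2 (β2) varied most among A receptor subunits other than Gabrd, from 168 to 885 normalized read counts, and rested on Vipr2-/- nSVE values of 463, 331 and 168 against 757, 394 and 885 under SVE (log2 fold change 1.12, SE 0.406, adjusted p = 0.262). Gabra2 (α2, 1994 to 3484), Gabra4 (α4, 213 to 473) and Gabrg3 (γ3, 2028 to 4667) had 0 calls in the 7 comparisons. Gabra4 and Gabrb1 lie on opposite strands and share 196 bases of gene body and 46 exonic bases, so reads there cannot be assigned with certainty. Gabrd (δ) was at most 79.7 and was at 0 in 6 libraries.

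**Figure D4:**
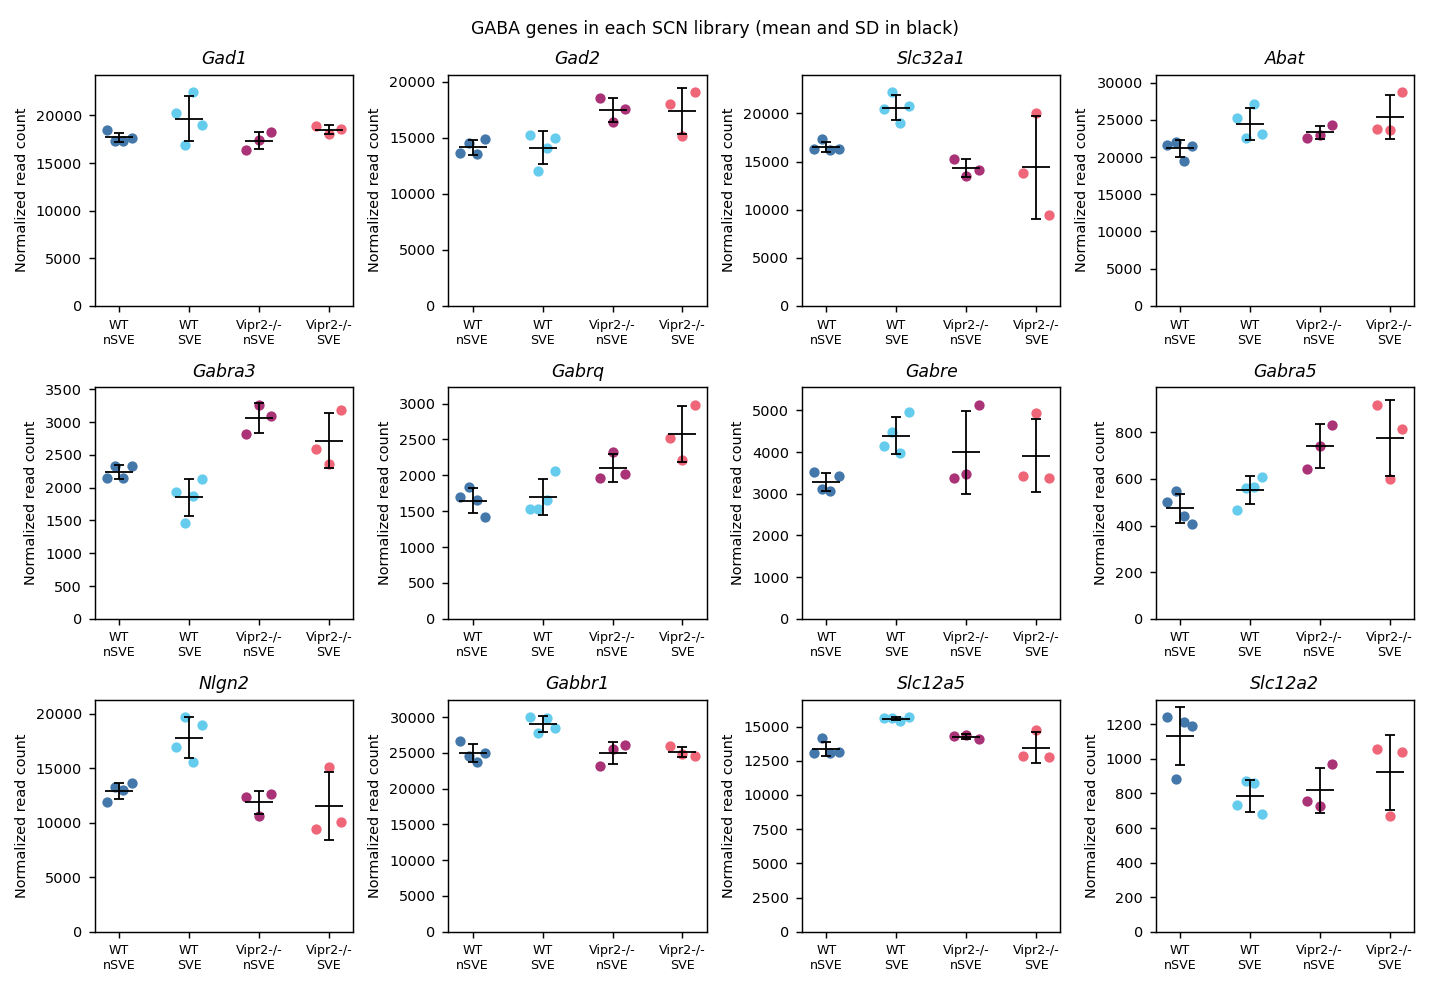
Normalized read counts (linear axes from 0) of 12 GABA genes in each library, by group, with the mean and SD in black (wild-type groups n = 4, Vipr2-/- groups n = 3). Vipr2-/- libraries of Gabra3 lie at 2367 to 3268 and wild-type libraries at 1462 to 2329, while Nlgn2 and Slc32a1 in Vipr2-/- SVE mice have 1 library, library 2, far above the others.

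Genes of the B receptor had no call in limma, and DESeq2 called Gabbr1 lower in Vipr2-/- mice under SVE (adjusted p = 0.0418) and higher with exercise in wild type (adjusted p = 0.0113). Gabbr1, the subunit that binds GABA, had normalized read counts of 26605, 24555, 23746 and 24992 in wild-type nSVE, 29966, 27799, 29876 and 28536 in wild-type SVE, 23171, 25582 and 26123 in Vipr2-/- nSVE and 25962, 24867 and 24538 in Vipr2-/- SVE libraries. Wild-type SVE libraries lay above those of the other 3 groups, with a log2 fold change of 0.22 for exercise in wild type (SE 0.0801, limma adjusted p = 0.236) and of -0.21 between genotypes under SVE (SE 0.0865, adjusted p = 0.280). Gabbr2, which couples to the G protein, ranged from 6052 to 9206 with groups that overlap in each comparison. Kctd12, an auxiliary subunit of the B receptor, lay between 737 and 1296 in 12 libraries and was listed at 0 in wild-type nSVE library 4 and Vipr2-/- nSVE library 1. Of 6877 genes at 500 or more in at least 12 libraries, 11 were at 0 in at least 1 library, so such a 0 is rare. Kctd12 shares 3805 exonic bases with a gene on the opposite strand, not analysed here, and no fold change is given for it.

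Of the scaffold and trafficking genes, Nlgn2 (neuroligin 2, which organises inhibitory synapses) had normalized read counts of 11921, 13265, 12978 and 13621 in wild-type nSVE, 16924, 19661, 15562 and 18958 in wild-type SVE, 12347, 10661 and 12611 in Vipr2-/- nSVE and 9411, 15119.5 and 10019.8 in Vipr2-/- SVE libraries. Each wild-type SVE library lay above the wild-type nSVE libraries and above all Vipr2-/- libraries, while Vipr2-/- SVE library 2 stood apart from the other 2 of its group. Exercise in wild type gave a log2 fold change of 0.45 for Nlgn2 (SE 0.132, limma adjusted p = 0.115), the genotypes under SVE -0.65 (SE 0.142, adjusted p = 0.0902) and the interaction -0.53 (SE 0.201, adjusted p = 0.431). Without Vipr2-/- SVE library 2 the first passed (adjusted p = 0.0223), as did the second at -0.87 (adjusted p = 0.00303). This omission leaves the wild-type fold change as it was and alters only the spread shared by the groups and the genes tested. Library 2 had 3.99% of genes at 0, against 10.5% and 16.3% in libraries 1 and 3. Without it limma called 6.12% of all genes between genotypes under SVE, against 0.176% with it. With the GC and length correction the 3 Nlgn2 values were 0.15 (adjusted p = 0.799) for exercise in wild type, -0.49 (adjusted p = 0.185) between genotypes under SVE and -0.09 (adjusted p = 0.918) for the interaction. The genotype value averaged over conditions went from -0.39 (adjusted p = 0.0702) to -0.45 (adjusted p = 0.0168). Gphn, the gephyrin scaffold, ranged from 489 to 1061 and had 0 calls. Gabarap and Gabarapl1, which carry receptors to the membrane and also act in autophagy, ranged from 6743 to 10717 and 14395 to 23359 normalized read counts. Vipr2-/- nSVE libraries of Gabarapl1, at 17736, 18066 and 23359, lay above wild-type nSVE ones, at 16545, 15800.1, 15655 and 15299 (log2 fold change 0.31, SE 0.122, limma adjusted p = 0.282).

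The 2 chloride transporters had fold changes of opposite sign for exercise in wild type, and neither passed in limma. DESeq2 called Slc12a5 higher there (adjusted p = 0.0112) and lower in Vipr2-/- mice under SVE. Slc12a5 (KCC2, which exports chloride) had normalized read counts of 13085, 14169, 13056 and 13170.1 in wild-type nSVE, 15633, 15609, 15401 and 15675 in wild-type SVE, 14318, 14401 and 14078 in Vipr2-/- nSVE and 12873, 14753 and 12784 in Vipr2-/- SVE libraries. Wild-type SVE libraries lay within a narrow band above every other library (log2 fold change for exercise in wild type 0.22, SE 0.0758, limma adjusted p = 0.193). The interaction was -0.31 (SE 0.116, adjusted p = 0.429). Both signs turned with the GC and length correction, to -0.012 (adjusted p = 0.999) and 0.053 (adjusted p = 0.947). Slc12a2 (NKCC1, which imports chloride) had normalized read counts of 1240.5, 881, 1217 and 1189 in wild-type nSVE, 733, 869.9, 862 and 684 in wild-type SVE, 756, 729 and 969 in Vipr2-/- nSVE and 1057, 668 and 1039.6 in Vipr2-/- SVE libraries. Wild-type nSVE libraries lay above wild-type SVE ones (log2 fold change -0.52, SE 0.182, adjusted p = 0.209, and 0.0473 when only these groups were fitted), with the interaction at 0.67 (SE 0.278, adjusted p = 0.445). Over 28 alternatives the exercise value of Slc12a2 in wild type ranged from -0.63 to -0.23 and passed in 2. Its interaction ranged from 0.22 to 0.89 over 27 alternatives and passed in 0. The fit of only the wild-type groups called a larger share of all genes than the main fit, which called 1.28%. The ratio of Slc12a2 to Slc12a5 normalized counts was 0.0851 ± 0.0154 (SD, n = 4) in wild-type nSVE, 0.0505 ± 0.00628 (n = 4) in wild-type SVE, 0.0574 ± 0.00994 (n = 3) in the nSVE and 0.0696 ± 0.0210 (n = 3) in the SVE libraries of Vipr2-/- mice. Its wild-type ranges, 0.0622 to 0.0948 and 0.0436 to 0.0560, did not overlap, and the ratio was given no test. The ratio was not corrected for base composition, in which the 2 genes differ (42.3% G and C for Slc12a2, 57.9% for Slc12a5).

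Fold changes of the members ran with their base composition, most closely between genotypes under SVE and in the interaction. Across the 27 genes, Spearman's rho between transcript GC content and the log2 fold change between genotypes was -0.84 under SVE and -0.23 without SVE, and it was 0.63 for exercise in wild type, -0.59 for exercise in Vipr2-/- mice and -0.86 for the interaction. These are descriptions over genes of the same libraries, not independent points. Under SVE 13 of 15 members with less than 50% G and C were above 0 between genotypes, against 3 of 12 with at least 50%. With the correction these counts were 8 of 15 and 2 of 12, and the median of the GC-poor members went from 0.37 to 0.0042. After each library was corrected for a trend in GC content and length, rho was -0.36 under SVE, -0.30 without SVE, -0.02 for exercise in wild type, 0.11 in Vipr2-/- mice and 0.16 for the interaction. Over the 24 members with no library at 0 the corrected values were -0.25 under SVE, -0.37 without SVE, -0.14 for exercise in wild type, 0.18 in Vipr2-/- mice and 0.42 for the interaction, the last opposite in sign to the -0.88 of these 24 before correction. A receptor subunits are mostly in the GC-poor part (Gabrg1 35.1%, Gabra2 38.6%, Gabra3 43.9%, Gabrq 46.0%), and Slc32a1 (61.9%), Nlgn2 (60.0%) and Slc12a5 (57.9%) in the GC-rich part. The part of base composition in these differences was not tested beyond this correction.

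**Figure D5:**
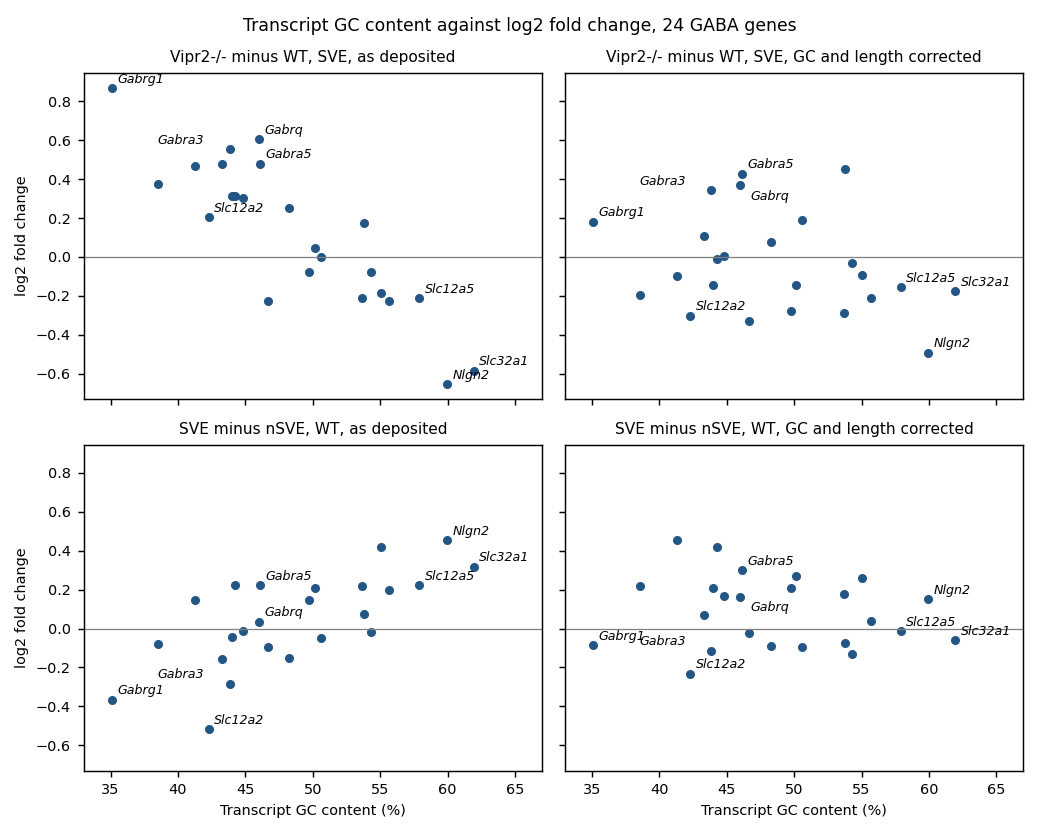
Transcript GC content in percent (x axis) against log2 fold change (y axis) for the 24 GABA genes with no library at 0, as deposited on the left and after the correction for GC content and length on the right. The upper panels show the genotypes under SVE and the lower panels exercise in wild type. As deposited, GC-poor genes such as Gabrg1 lie high and GC-rich ones such as Nlgn2 and Slc32a1 lie low under SVE, and the slope is weaker after the correction.

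Among 36 other genes of the pathway, 31 of them tested, 3 were called for exercise in wild type, where 1.28% of all genes tested were called. Shisa7, an auxiliary protein of the A receptor, rose from 3872, 4368, 3705 and 3924 to 6486, 6109.9, 5397 and 6902 normalized read counts (log2 fold change 0.65, SE 0.141, limma adjusted p = 0.0352). Wnk2, a kinase that acts on the chloride transporters, rose from 8161, 8117, 6877 and 8209 to 10509, 11329, 10126 and 11355 (0.47, SE 0.0946, adjusted p = 0.0252). Gabarapl2, a relative of Gabarap, fell from 3197, 3078, 3554 and 3281 to 2389, 2359.5, 2367 and 2255 (-0.48, SE 0.110, adjusted p = 0.0426). These wild-type groups did not overlap for any of the 3 genes, nor for 14.7% of all genes. The 3 genes were picked by their calls, so this gives the calls no added support. Each call was lost when any 1 of the 8 wild-type libraries was left out, with adjusted p up to 0.152 for Shisa7, 0.112 for Wnk2 and 0.160 for Gabarapl2. With the GC and length correction the values were 0.45 (adjusted p = 0.156), 0.18 (adjusted p = 0.450) and -0.48 (adjusted p = 0.0901). Averaged over genotypes, exercise gave -0.49 for Gabarapl2 (SE 0.0838, adjusted p = 0.0104), a call kept in 14 of 14 omissions of 1 library. In that comparison 1.45% of all genes were called. Wnk2 (0.31, adjusted p = 0.0468) and Shisa7 (0.48, adjusted p = 0.0369) passed there too, but Wnk2 kept its call in 2 of 14 omissions (Vipr2-/- nSVE library 3 and SVE library 1) and Shisa7 in 5 (wild-type SVE library 3, Vipr2-/- nSVE libraries 1 and 3 and SVE libraries 1 and 3), with adjusted p up to 0.113 and 0.0918 otherwise. A ribosomal RNA transcript took 4.80% to 21.8% of reads in wild-type nSVE and 1.33% to 12.5% in wild-type SVE libraries. With that share as covariate the wild-type values were 0.51 (SE 0.172, adjusted p = 0.443) for Shisa7, 0.41 (SE 0.119, adjusted p = 0.329) for Wnk2 and -0.49 (SE 0.141, adjusted p = 0.329) for Gabarapl2, and the averaged value of Gabarapl2 was -0.50 (SE 0.116, adjusted p = 0.225). The calls were thus lost with larger standard errors, at smaller fold changes for Shisa7 and Wnk2 and similar ones for Gabarapl2. In Vipr2-/- mice Gabarapl2 was at 3216, 4149 and 4105 without and 3133, 2393 and 2564 with SVE, also without overlap, as were 9.99% of all genes. Between genotypes averaged over conditions, Lhfpl4, which anchors A receptors at inhibitory synapses, was the only one called and fell in Vipr2-/- mice, from 5183, 5124, 5386 and 4998 and 5379, 5544, 4932 and 4287 in wild-type nSVE and SVE to 3579, 4204 and 3594 and 3409.7, 4599 and 3538 (log2 fold change -0.42, SE 0.0853, adjusted p = 0.0266). In that comparison limma called 1.18% of all genes. The Lhfpl4 call held in 8 of 14 omissions of 1 library. It was lost without wild-type nSVE libraries 1 (adjusted p = 0.0510) and 3 (adjusted p = 0.0662), wild-type SVE libraries 1 (adjusted p = 0.0634) and 2 (adjusted p = 0.0640), and Vipr2-/- SVE libraries 1 (adjusted p = 0.0794) and 3 (adjusted p = 0.0675). It was also lost with array weights (adjusted p = 0.0501), when both Vipr2-/- groups lost their sparsest library (-0.38, adjusted p = 0.0586) and with each library's percentage of zeros as covariate (-0.24, adjusted p = 0.763). The other genes of the list passed in 0 of the 7 comparisons.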

How the data were processed

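Total RNA of 14 laser-cut SCN samples was sequenced in paired ends after random priming, per the labels' protocols; strandedness is not given in the sources used here, so reads of overlapping antisense genes may be mixed. The submitters' processing notes name Trimmomatic, FastQC, HISAT2, StringTie and DESeq2, with versions not given in the sources used here. The design text names GRCm38 and the notes GRCm39. Of 55401 identifiers in the table, 54349 are in GENCODE M21 (GRCm38), at the same coordinates. The deposited signal per gene and library is the authors' DESeq2-normalized read count. Whole reads were recovered from it (100% of values within 0.001 reads) and gave the depths, which describe counting error only. A second sheet of column names was not used.

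Tests took the 18175 genes whose value reached 10 in 3 or more libraries. They were run on log2(value + 1) by limma 3.58.1 (R 4.3.3) with a mean-variance trend and 1 mean per group over all 14 libraries, two-sided, in 7 comparisons. Adjustment was by Benjamini-Hochberg over all genes tested, and calls were made at an adjusted p under 0.05; each p given is adjusted unless called unadjusted, and comes from limma unless another tool is named. Fold changes on that scale understate those of low genes. The 27 members, the lists and the tests were chosen with earlier results of these data known, so no list was tested. Each member is described, and statistics are given for called members, the 3 smallest p per comparison, and further members chosen after their values were seen. Other pathway genes are named where called. Promoter sequences are from RefSeq (GRCm38.p6).

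Alternatives changed the pseudocount (0.5 or 10), the filter (none, or 50 in 3 libraries), the scaling (TMM) or the tool (edgeR 4.0.16 or DESeq2 1.42.0 on recovered reads). Further ones were array weights, the replicate number as a block, a fit of only the groups compared, a spline correction of each library for GC content and length (values for 18152 genes), a covariate for each library (its percentage of zeros, or its share of a ribosomal RNA transcript), and the omission of libraries. Medians over only the members with no library at 0 were added after the data were seen. The fit was tested on simulated data.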

Additional observations from a re-analysis of the deposited data

Results flagged for a closer look

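In 54 sets of 4 wild-type libraries, 1 set per gene and group, a library was looked for whose gap to the nearest other exceeded 0.829 of the range of its set. Chance gives about 1 in 20, and 6 were found. Wild-type nSVE library 2 was concerned 4 times: it was highest in Slc32a1, at 17348 normalized read counts against 16184 to 16279 in the other 3, highest in Gabrd, at 79.7 against 0 to 10.1, highest in Slc12a5, at 14169 against 13056 to 13170.1, and lowest in Slc12a2, at 881 against 1189 to 1240.5. Its log2 fold difference between GC-rich and GC-poor genes, -0.03, was the highest of its group, and it had the most reads, 48794679; their part in these values was not tested. Kctd12 was listed at 0 in wild-type nSVE library 4 against 1014 to 1107 in the other 3. In wild-type SVE library 4 Kctd12 stood at 861 against 737 to 750.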

How the results depend on the processing

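Of 1329 alternative values of 47 named fold changes and of the ratios, 1184 kept their direction and side of the threshold, 102 no longer passed, 35 newly passed and 8 reversed. The correction for GC content and length reversed Slc12a5 for exercise in wild type (-0.012) and for the interaction (0.053), Slc32a1 for exercise in wild type (-0.060), and Gabrb1 under SVE (-0.099) and Abat without SVE (-0.0036) between genotypes; Abat also reversed with the percentage of zeros as covariate (-0.016). Slc6a11 for exercise in Vipr2-/- mice (-0.10) was 0.0058 with the correction, and Gad1 without SVE (-0.028) ranged from -0.065 to 0.011 with 1 library left out, above 0 without Vipr2-/- nSVE library 1. For genotype averaged over conditions, the count of members called (2) was 1 with no filter (0.526% of all genes called), 8 with DESeq2 (4.54%), 0 with array weights (0.902%), 4 with the GC and length correction (3.07%), 0 with the zeros covariate (0.066%), 1 (1.46%) when each Vipr2-/- group lost its sparsest library (number 3 in both), and 0 to 8 with 1 library left out (8 without Vipr2-/- SVE library 2, with 5.62%, 4 without Vipr2-/- nSVE library 3, with 2.35%, 0 without wild-type nSVE library 3 or Vipr2-/- SVE library 3). Under SVE the genotype count (0) was 8 with DESeq2 (2.66%) and 0 to 7 with 1 library left out (7 without Vipr2-/- SVE library 2, with 6.12%). For exercise in wild type (0) it was 3 with DESeq2 (3.9%), 6 with array weights (9.31%), 4 with only the groups compared (6.96%) and 0 to 1 with 1 library left out. The members' median log2 fold change for genotype under SVE (0.17) was -0.099 with the GC and length correction, 0.046 with the zeros covariate, 0.071 without the sparsest libraries and 0.071 to 0.24 with 1 left out. Without SVE (0.12) it was -0.0036 with the correction and 0.070 to 0.12 with 1 left out. Averaged (-0.015) it was -0.076 with the correction, 0.046 with the zeros covariate, 0.066 over the 24 members with no library at 0, a choice made after seeing the data, and -0.032 to 0.091 with 1 left out. For the interaction (-0.0028) it was -0.11 with the correction and -0.069 to 0.026 with 1 left out. For exercise it was, in wild type (0.14), 0.089 with edgeR, 0.079 with DESeq2, 0.055 over those 24 and 0.058 to 0.15 with 1 left out, and in Vipr2-/- mice (0.011), 0.069 with the zeros covariate, 0.00015 over those 24 and 0.011 to 0.062 with 1 left out. Over all 18175 genes the averaged genotype comparison called 215 in limma and 825 with DESeq2. The causes were not tested.

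The labels do not say that replicate numbers pair libraries. Over 19 pairs of the same number, residuals correlated at -0.0536 to 0.117, 1 pair being over 0.1, and for 9 of 14 libraries the best correlation was with one of its number, a hint from the data and not the design. With the replicate number as a block, the averaged genotype comparison had 1 member called (0.38% of all genes), Gabra3 (adjusted p = 0.0453), and the median under SVE was 0.038.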
